A study of Mus musculus with 10 samples.

Results

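The genes described here are 37 genes of ribosome biogenesis and RNA polymerase I, taken by symbol from a table of 20813 genes. They encode nucleolar scaffold proteins, the protein cores of the small nucleolar ribonucleoproteins (snoRNPs), assembly factors of both ribosomal subunits, and subunits and initiation factors of RNA polymerase I. All 37 were in the table, and all 37 passed the filter on low values that left 15276 genes for testing. They were measured by RNA-seq in 10 leukemic mouse spleens, 5 labelled Sirt1-deleted (replicates 7, 8, 10, 11 and 12) and 5 control (replicates 2, 3, 4, 5 and 6). All 10 recipients were C57BL/6 mice irradiated below the lethal dose and injected intravenously with T-cell acute lymphoblastic leukemia (T-ALL, a cancer of immature T cells) that carried a conditional Sirt1 allele. The control mice received corn oil into the peritoneum, and the other group received tamoxifen, 3 mg per mouse, in corn oil, so the label and the drug cannot be told apart. The promoter driving the recombinase, the number of primary leukemias, the age of the mice and the time after treatment are not given in the sources used here. The spleens were pressed through a filter and red cells were lysed with no sorting step stated, so the RNA came from leukemic cells and whatever host cells remained. In such bulk RNA, fewer cells of a type and less RNA per cell cannot be told apart.

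As background, RNA polymerase I transcribes the ribosomal RNA (rRNA) genes in the nucleolus as a long precursor. Box C/D and box H/ACA snoRNPs modify that precursor by 2'-O-methylation and pseudouridylation, and large assemblies of further proteins fold and cut it into the RNAs of the small and the large ribosomal subunit. MYC is known to raise the transcription of many of these genes in dividing cells, and failure of the pathway lets free RPL5 and RPL11 bind MDM2 and stabilize p53.

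Total normalized counts lay between 33.7 M and 34.5 M (M, mega) in every sample. The Sirt1 mRNA did not separate the groups (1873 ± 146 against 1810.5 ± 62.5, SD, n = 5 each; log2 difference 0.05, 95% interval -0.08 to 0.17, limma adjusted p = 0.568), and the gene total does not resolve a deleted exon. The defining T-lineage markers were abundant in both groups, with Lck, a T-cell kinase, at a mean of 31393 in the labelled Sirt1-deleted and 28587 in the control samples. Summed neutrophil markers ranged from 27185 to 93577 in the labelled Sirt1-deleted group and from 8475 to 11765 among the controls, and 13 of 14 were called higher. Summed macrophage and monocyte markers ranged from 6996 to 13038 and from 3339 to 3814, with 12 of 14 called higher. Of 12 T-lineage markers, 3 were called lower (25%) and 1 higher (8.33%), beside 19.4% and 16.8% of all tested genes. Their differences were above 0 for 5 and below 0 for 7. Their sum ranged from 151739 to 169750 against 170661 to 185476. Tcf7, at a mean of 58426 against 77942, weighed most in that sum, so the sum does not show a fall shared by the markers. Of 16 proliferation genes, 7 were called lower and 1 higher, with sums of 183387 to 221105 against 206263 to 229355. None of 8 B-cell and 8 erythroid markers was called by limma (2 and 1 at an unadjusted p under 0.05, and 0 and 0 in an exact rank-sum test), 1 of 6 tested stromal and endothelial markers was called lower, and no marker of any list was at 0 in all samples. The part that these cell mixtures had in the values below was not tested.

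The 37 genes did not move as a block. At an adjusted p under 0.05 by limma, 8 were higher in the labelled Sirt1-deleted spleens (Utp20, Ncl, Gar1, Nop56, Ppan, Nop58, Rrp9 and Nhp2), 3 were lower (Ddx21, Pes1 and Wdr12), and 26 were not called. The share called higher was 21.6% of the members against 16.8% of all tested genes, and the share called lower was 8.11% against 19.4%. Either direction was called for 36.1% of all tested genes. With all 10 samples the higher share was near the background and the lower share was under it. The lower share did not stay there: without labelled Sirt1-deleted replicate 10 it was 27.0% of the members, near the 21.9% of all tested genes. The log2 difference was above 0 for 17 of the 37 and below 0 for 20, with a median of -0.03 beside a median of -0.00014 over all tested genes. Upper-quartile scaling moved both medians up, to 0.025 for the members and 0.058 for all tested genes, so the members' median was below that of all genes as before. Quantile scaling gave 0.018 for the members and -0.027 for all tested genes. The members' differences ran from -0.32 to 0.59, a narrow range in this table: 14.8% of all tested genes had a difference lower than the former and 11% one higher than the latter. The background was not matched for expression. The lowest group mean of any member was 1313 (Noc3l, labelled Sirt1-deleted), while all tested genes include means from 10 up.

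For 9 genes the values did not overlap between the groups, and all 9 were higher in the labelled Sirt1-deleted spleens. They were the 8 called genes and Gnl3. No member had all 5 labelled Sirt1-deleted values below all 5 control values. Over all tested genes, 24.0% had groups that did not overlap, 11.1% with the labelled Sirt1-deleted side higher and 12.9% with it lower. The 3 genes called lower therefore differed in their means while at least 1 labelled Sirt1-deleted spleen stayed within the control range.

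**Figure D1:**
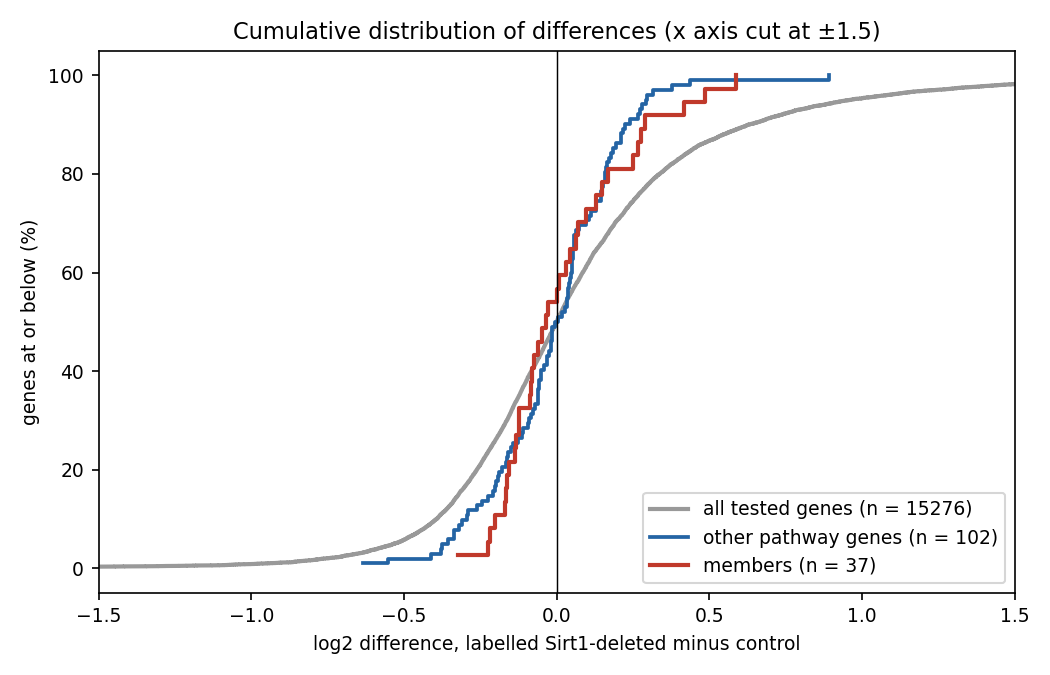
Cumulative share of genes (y axis, %) at or below each log2 difference (x axis, labelled Sirt1-deleted minus control, cut at both ends). Curves are for the 37 genes, for 102 other genes of the pathway and for all 15276 tested genes. The members span -0.32 to 0.59, and the curve of all tested genes has longer tails on both sides.

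Genes are described in the order of their roles, and the promoter letters that the pathway is best known for are shown before their values. Sequences of 250 bases before to 50 bases after the transcription start (RefSeq, GRCm38.p6) were found for 33 of the 37, without Npm1, Rrp12, Fbl and Bop1. They were searched for CACGTG, the E-box letters that MYC is known to bind, which read the same on both strands. CACGTG was in 5 of the 33 (15.2%), in 11.1% of the promoters of all tested genes and in 8.09% of those of all genes in the promoter table. CCAAT, searched on both strands and sharing no full match with CACGTG, was in 33.3% of the members, 42.9% of tested genes and 41.1% of all genes in the promoter table. The 5 promoters with CACGTG belong to a gene called higher (Utp20), a gene called lower (Pes1) and 3 not called (Nop2, Tsr1 and Rrn3). The windows below hold the motif in capitals with up to 12 bases on either side, read along the strand of the gene, and are shown because the same letters stand at genes that differed in opposite directions; coordinates are GRCm38, and the Rrn3 promoter holds the motif at 2 places.
Utp20, chr10:88826765-88826789, minus strand: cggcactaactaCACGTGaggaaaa
Pes1, chr11:3963965-3963994, plus strand: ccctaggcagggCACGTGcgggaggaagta
Nop2, chr6:125131811-125131840, plus strand: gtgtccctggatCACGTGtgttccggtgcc
Tsr1, chr11:74898092-74898121, plus strand: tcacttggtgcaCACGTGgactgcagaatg
Rrn3, chr16:13780472-13780501, plus strand: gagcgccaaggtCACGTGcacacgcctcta
Rrn3, chr16:13780639-13780668, plus strand: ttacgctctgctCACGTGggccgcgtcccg

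**Figure D2:**
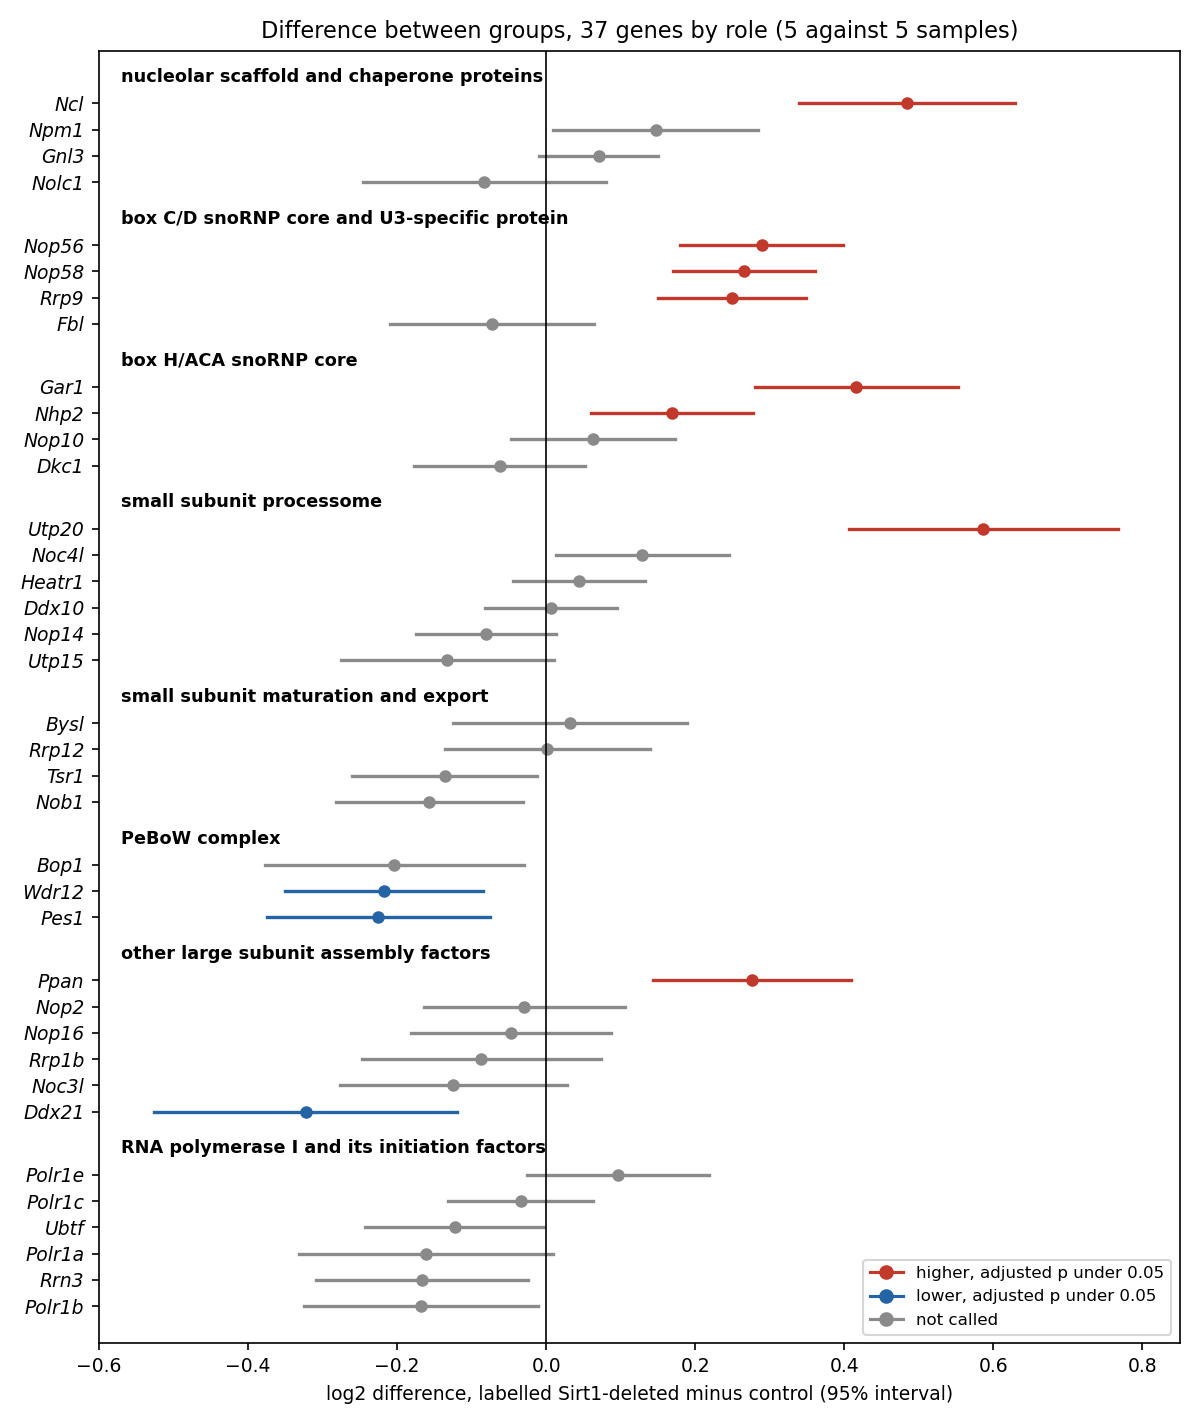
Log2 difference between the groups (x axis, labelled Sirt1-deleted minus control, bars are 95% intervals, 5 samples a group) for the 37 genes, ordered by role. The intervals of Nop56, Nop58, Gar1 and Utp20 lie to the right of 0. The points of 5 of the 6 RNA polymerase I genes lie to the left of 0, where the intervals of Polr1a and Polr1c cross 0. None of the 6 was called.

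Among the 4 nucleolar scaffold and chaperone genes, 1 was called, and it rose. Ncl (mm10, chr1:86344719-86359400, minus strand) encodes nucleolin, an abundant RNA-binding protein of rRNA transcription and early processing. Its normalized count was 89873, 82589.6, 93671, 87095 and 110132 in labelled Sirt1-deleted replicates 7, 8, 10, 11 and 12. In control replicates 2 to 6 it was 65157, 65473, 66207, 65879.5 and 66936. All 5 labelled Sirt1-deleted values were above all 5 control values, and the controls lay within a narrow band. The means were 92672 ± 10565 and 65930.4 ± 689 (SD, n = 5 each), which is 40.6% higher and a log2 difference of 0.48 (SE 0.07, 95% interval 0.34 to 0.63, limma adjusted p = 0.000579).

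Npm1 (chr11:33152287-33163206, minus strand) encodes nucleophosmin, a histone and ribosome chaperone that forms the granular part of the nucleolus. It measured 79703.5, 79496, 96501.6, 92866 and 82484 in the labelled Sirt1-deleted replicates in the same order, and 72878, 77260.5, 76186, 79854 and 82229 in the control replicates. Replicates 10, 11 and 12 stood above every control, replicate 12 by little, and replicates 7 and 8 were within the control range. The difference, 0.15 on the log2 scale (SE 0.06, 95% interval 0.01 to 0.28), was not called (limma adjusted p = 0.0896) and turned to -0.06 under quantile normalization. Nolc1, a chaperone of snoRNPs, differed by -0.08 (95% interval -0.25 to 0.08, limma adjusted p = 0.411). Gnl3, the GTP-binding protein nucleostemin, was between 7195 and 7555 in the labelled Sirt1-deleted spleens and between 6823 and 7167 in controls. These ranges do not overlap, yet the difference was small, 0.07 on the log2 scale (SE 0.04, 95% interval -0.01 to 0.15, limma adjusted p = 0.152).

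Of the 4 genes of the box C/D snoRNP, the particle that guides 2'-O-methylation, 3 were called higher and the methyltransferase itself was not. Nop56 (chr2:130274430-130279313, plus strand), a core scaffold of the particle, measured 16498, 15941, 15767, 15658 and 18513 in the labelled Sirt1-deleted replicates and 13160.1, 13051, 13854, 13594 and 13647 in the control replicates. Nop58 (chr1:59684971-59719044, plus strand), its partner scaffold, measured 13064, 12697, 14048, 13429 and 13768 against 10471, 11247, 11067, 11499 and 11456. Both genes had every labelled Sirt1-deleted value above every control value. On the log2 scale the difference was 0.29 for Nop56 (SE 0.05, limma adjusted p = 0.00163, 22.4% higher) and 0.27 for Nop58 (SE 0.04, limma adjusted p = 0.00124, 20.2% higher). Rrp9 (chr9:106475963-106485424, plus strand) encodes the protein specific to the U3 snoRNP, which acts in cutting the precursor rather than in methylation. It was 3365 to 3671 in the labelled Sirt1-deleted samples and 2836 to 3154 in controls, a log2 difference of 0.25 (SE 0.05, limma adjusted p = 0.00211).

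Fbl (chr7:28169710-28179269, plus strand), which encodes the methyltransferase fibrillarin, did not follow its partners. It was 11035, 11897, 12778, 12576 and 9946 in the labelled Sirt1-deleted replicates and 12194, 11944, 12518, 12145 and 12219 in controls. The labelled Sirt1-deleted values lay on both sides of the narrow control range, with replicates 10 and 11 above it and replicates 7, 8 and 12 below it. The log2 difference was -0.07 (SE 0.06, 95% interval -0.21 to 0.06, limma adjusted p = 0.385).

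Of the 4 box H/ACA genes, whose particle guides pseudouridylation, 2 were called higher. Gar1 (chr3:129824912-129831396, minus strand), a core protein that helps release the modified RNA, measured 5424, 4769, 5108, 5367 and 6030.05 in the labelled Sirt1-deleted replicates and 3725, 4079, 4095, 3825 and 4248 in controls. The groups were apart, at means of 5339.7 ± 465 and 3995 ± 214 (SD, n = 5 each). The log2 difference was 0.42 (SE 0.06, 95% interval 0.28 to 0.55, limma adjusted p = 0.000806), or 33.7% higher. Nhp2 (chr11:51619735-51623714, plus strand), an RNA-binding core protein, was 5159 to 5898 against 4640.2 to 5133. Its log2 difference was 0.17 (SE 0.05, limma adjusted p = 0.0203), the smallest called rise, and its call was lost without control replicate 3 (limma adjusted p = 0.0536). Dkc1, the pseudouridine synthase dyskerin, differed by -0.06 (95% interval -0.18 to 0.05, limma adjusted p = 0.379). Nop10, the smallest core protein, differed by 0.06 (95% interval -0.05 to 0.17, limma adjusted p = 0.351). The genes of the modifying enzymes, Fbl and Dkc1, were thus not called, and neither was the core protein gene Nop10. Of all tested genes, 36.1% were called in either direction.

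Of the 6 genes of the small subunit processome, the early particle in which U3 directs cutting of the precursor, 1 was called. Utp20 (chr10:88746607-88826804, minus strand), a very large helical-repeat protein needed for processing toward the small subunit rRNA, had the widest difference of the 37. It measured 4221, 3765, 4734, 4074 and 5253 in the labelled Sirt1-deleted replicates and 2806, 2883, 2695, 3039 and 3181 in controls. Every labelled Sirt1-deleted value was above every control value, with replicate 12 the highest. The means were 4409.5 ± 587 and 2921 ± 192 (SD, n = 5 each), which is 51.0% higher and a log2 difference of 0.59 (SE 0.08, 95% interval 0.41 to 0.77, limma adjusted p = 0.000619).

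The other processome genes were not called. Noc4l, a partner of NOP14, differed by 0.13 on the log2 scale (95% interval 0.01 to 0.25, limma adjusted p = 0.0776), and Heatr1, a factor of pre-rRNA transcription and processing, by 0.04 (95% interval -0.05 to 0.13, limma adjusted p = 0.428). Utp15, which acts in the same subcomplex as Heatr1, differed by -0.13 (95% interval -0.28 to 0.01, limma adjusted p = 0.134), Nop14 by -0.08 (limma adjusted p = 0.164) and the RNA helicase gene Ddx10 by 0.01 (limma adjusted p = 0.923).

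None of the 4 genes of small subunit maturation and export was called by limma, with 2 at an unadjusted p under 0.05 and 0 called in the rank-sum test. Nob1, the endonuclease that makes the final cut of the small subunit rRNA, was 2533 to 3165 in the labelled Sirt1-deleted samples and 3058 to 3284 in controls, a log2 difference of -0.16 (95% interval -0.28 to -0.03, limma adjusted p = 0.0502). Tsr1, a GTPase-like factor of the late particle, differed by -0.14 (95% interval -0.26 to -0.01, limma adjusted p = 0.0808). Bysl, an assembly factor of the same particle, differed by 0.03 (limma adjusted p = 0.764) and Rrp12, an export factor, by 0.00 (95% interval -0.14 to 0.14, limma adjusted p = 0.988).

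Large subunit factors moved in both directions. The PeBoW complex (Pes1, Bop1 and Wdr12) acts in cutting the precursor toward the large subunit rRNAs, and 2 of its 3 genes were called lower. Pes1 (chr11:3963975-3980004, plus strand) measured 4557, 4807, 5439, 5391 and 4433 in the labelled Sirt1-deleted replicates and 6395, 5450.2, 5659.6, 5414 and 5817 in controls. Wdr12 (chr1:60069785-60098645, minus strand) measured 3306, 3392, 3667, 3595 and 2958 against 3928, 4017, 3619, 3975 and 4095. In each gene replicates 7, 8, 11 and 12 were below every control and replicate 10 was within the control range. The fitted difference was -0.23 on the log2 scale for Pes1 (SE 0.07, limma adjusted p = 0.0230) and -0.22 for Wdr12 (SE 0.06, limma adjusted p = 0.0161). Bop1 was 4202, 4405, 5061, 4538 and 3582 against 5491, 4780.4, 4909, 5079 and 4711, with only replicate 10 inside the control range. Its difference of -0.20 was not called (SE 0.08, limma adjusted p = 0.0636).

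Among the other 6 large subunit genes, 1 was called in each direction. Ddx21 (chr10:62580251-62602281, minus strand), an RNA helicase that also associates with transcribed rRNA genes, measured 11328, 11890.1, 15159, 12844 and 9906 in the labelled Sirt1-deleted replicates. In controls it measured 16989, 14919, 14411, 15052 and 14469. Replicate 10 lay above 4 of the 5 controls, and the other 4 labelled Sirt1-deleted samples lay below all of them. Its log2 difference was -0.32 (SE 0.09, 95% interval -0.53 to -0.12, limma adjusted p = 0.0182), or -19.4%, the widest fall of the 37.

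Ppan (chr9:20888175-20892178, plus strand), a factor of early large subunit particles, went the other way. It measured 6204, 5515, 5035, 5323 and 6315 in the labelled Sirt1-deleted replicates and 4669.5, 4698, 4662, 4609 and 4714 in controls. The control values were close together and all below the labelled Sirt1-deleted ones, with a log2 difference of 0.28 (SE 0.06, limma adjusted p = 0.00508) or 21.6% higher. The rest were not called: the rRNA methyltransferase gene Nop2 differed by -0.03 (limma adjusted p = 0.747), Nop16 by -0.05 (limma adjusted p = 0.584), Noc3l by -0.12 (limma adjusted p = 0.185) and Rrp1b by -0.09 (limma adjusted p = 0.381). The last 3 encode nucleolar proteins of large subunit assembly.

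**Figure D3:**
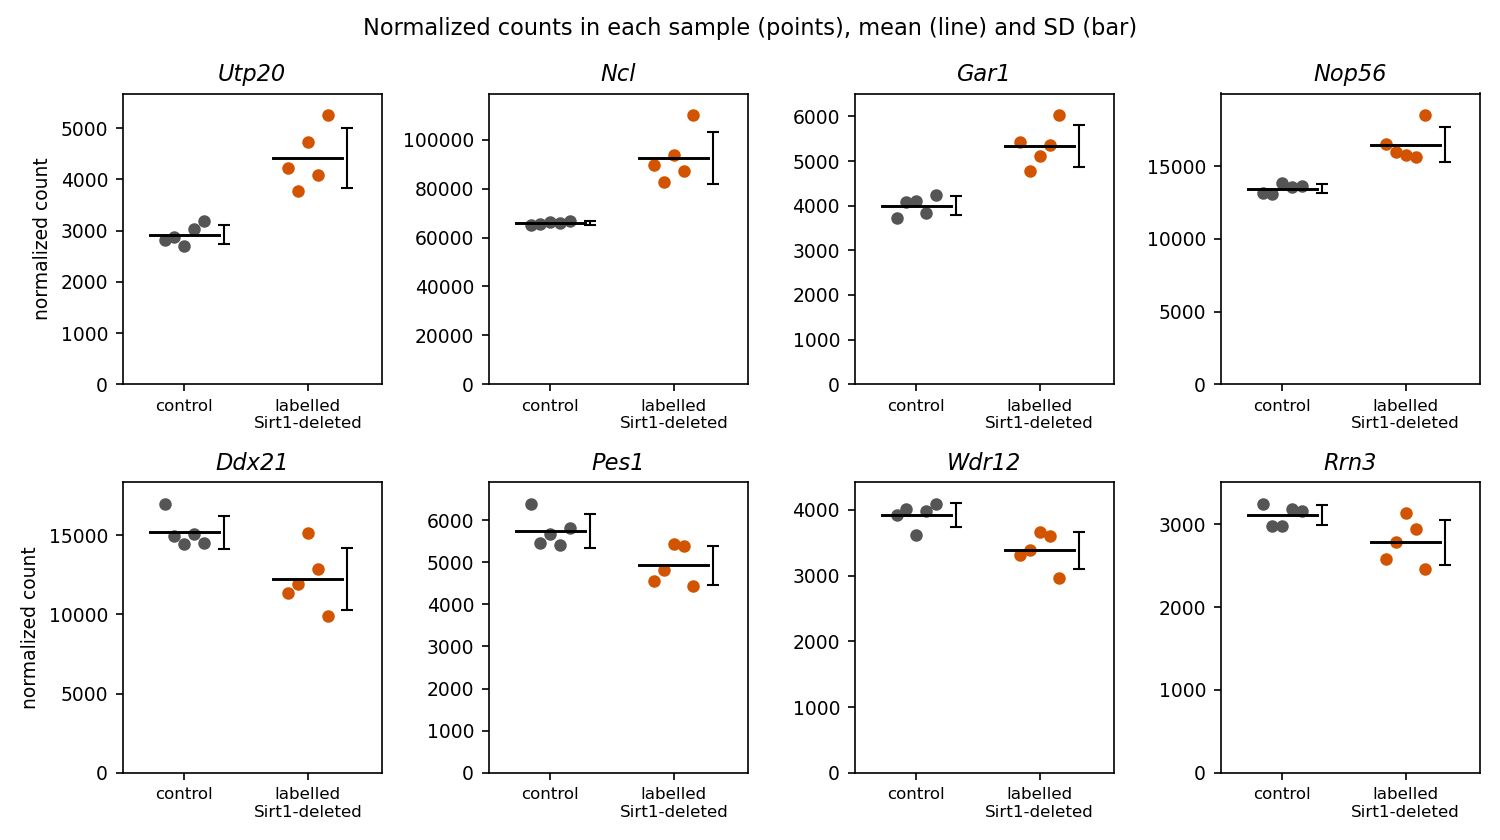
Normalized counts (y axis, from 0) in each of the 10 samples (points), with the group mean (line) and SD (bar), for Utp20, Ncl, Gar1, Nop56, Ddx21, Pes1, Wdr12 and Rrn3. For Utp20, Ncl and Gar1 all 5 labelled Sirt1-deleted points lie above all 5 control points, while for Ddx21 replicate 10, at 15159, lies within the control range.

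None of the 6 RNA polymerase I genes was called by limma, with 3 at an unadjusted p under 0.05. The rank-sum test called 0. The 9 other RNA polymerase I genes, described further below, leaned the other way, with 7 differences above 0, 2 below 0 and a median of 0.06. Of the 6 members' differences, 5 were below 0, and their median was -0.14. Polr1c, one of the 5, was at 0.02 after upper-quartile scaling, which is below the median of all tested genes on that scale (0.058), and at 0.03 after quantile scaling, which is above it (-0.027). Polr1a (chr6:71909053-71984935), the largest subunit of the enzyme, measured 2892, 3255, 3368, 2940.1 and 2737 in the labelled Sirt1-deleted replicates and 4011, 3074, 3478, 3173 and 3283 in controls. Polr1b (chr2:129100995-129126594), which forms the catalytic centre with it, measured 2968, 3015, 3524, 3094 and 2582 against 3471, 3536, 3287, 3541 and 3159.6. In both genes replicates 7, 11 and 12 were below every control, replicate 10 was among the controls, and replicate 8 was below them for Polr1b alone. The log2 difference was -0.16 for Polr1a (SE 0.08, 95% interval -0.33 to 0.01, limma adjusted p = 0.126) and -0.17 for Polr1b (SE 0.07, 95% interval -0.33 to -0.01, limma adjusted p = 0.0870).

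Ubtf (chr11:102304560-102319742) encodes UBF, which coats active rRNA genes. It measured 9994, 10625, 11344, 11146 and 9309 in the labelled Sirt1-deleted replicates and 11764, 11305, 10934, 11639 and 11304 in controls. Rrn3 (chr16:13780708-13814839) encodes TIF-IA, the factor that brings the polymerase to its promoter in growing cells. It measured 2582, 2783, 3134, 2939.6 and 2459.7 against 3249.5, 2980.4, 2978, 3187 and 3157. For both factors, replicates 7, 8 and 12 were below every control and replicate 10 was within the control range, while replicate 11 was within it for Ubtf and below it for Rrn3. Ubtf differed by -0.12 on the log2 scale (SE 0.06, limma adjusted p = 0.101) and Rrn3 by -0.17 (SE 0.07, 95% interval -0.31 to -0.02, limma adjusted p = 0.0635). Polr1c, a subunit shared with RNA polymerase III, differed by -0.03 (limma adjusted p = 0.582), and Polr1e, a subunit that aids initiation and elongation, by 0.10 (95% interval -0.03 to 0.22, limma adjusted p = 0.198).

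The labelled Sirt1-deleted spleens differed among themselves more than the controls did. The SD of log2 values was larger in the labelled Sirt1-deleted group for 31 of the 37 members (83.8%), against 66.7% of all tested genes. The median coefficient of variation of the members was 8.21% in the labelled Sirt1-deleted and 4.65% in the control group. Most of this spread ran between replicates 10 and 12. Replicate 10 had the highest value of its group in 18 of the 29 members not called higher, and replicate 12 had the lowest in 19 of those 29. For the 8 members called higher the order changed, and replicate 12 was the highest in 6 and replicate 10 in 2.

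Over all 37 members, the median log2 difference from the control mean was -0.11 in replicate 7, 0.02 in replicate 8, 0.06 in replicate 10, 0.03 in replicate 11 and -0.11 in replicate 12. Replicates 7 and 12 were below the control mean by about the same amount, and the other 3 were slightly above it. Replicate 8 was within the range of the control samples' own medians (-0.02 to 0.03). Over the 29 genes not called higher, a choice that itself lowers these medians, it was -0.15 in replicate 7, -0.06 in replicate 8, 0.05 in replicate 10, 0.01 in replicate 11 and -0.24 in replicate 12. For the 6 RNA polymerase I genes the same medians were -0.19, -0.08, 0.00, -0.06 and -0.30. In these subsets too replicates 10 and 11 were near the controls, and replicates 7 and 12 were the farthest below them. The same samples differed in the cell markers. The proliferation sum was 221105 in replicate 10 and 219679 in replicate 11, within the control range. It was below that range in replicates 7 (183387), 8 (191408) and 12 (184413). The neutrophil sum was lowest in replicate 10 (27185) and highest in replicate 8 (93577), and the T-lineage sum was lowest in replicate 12 (151739). The part these had in the members' values was not tested. Over all tested genes, replicate 10 had the highest value of its group in 25.9% and replicate 12 the lowest in 29.7%.

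**Figure D4:**
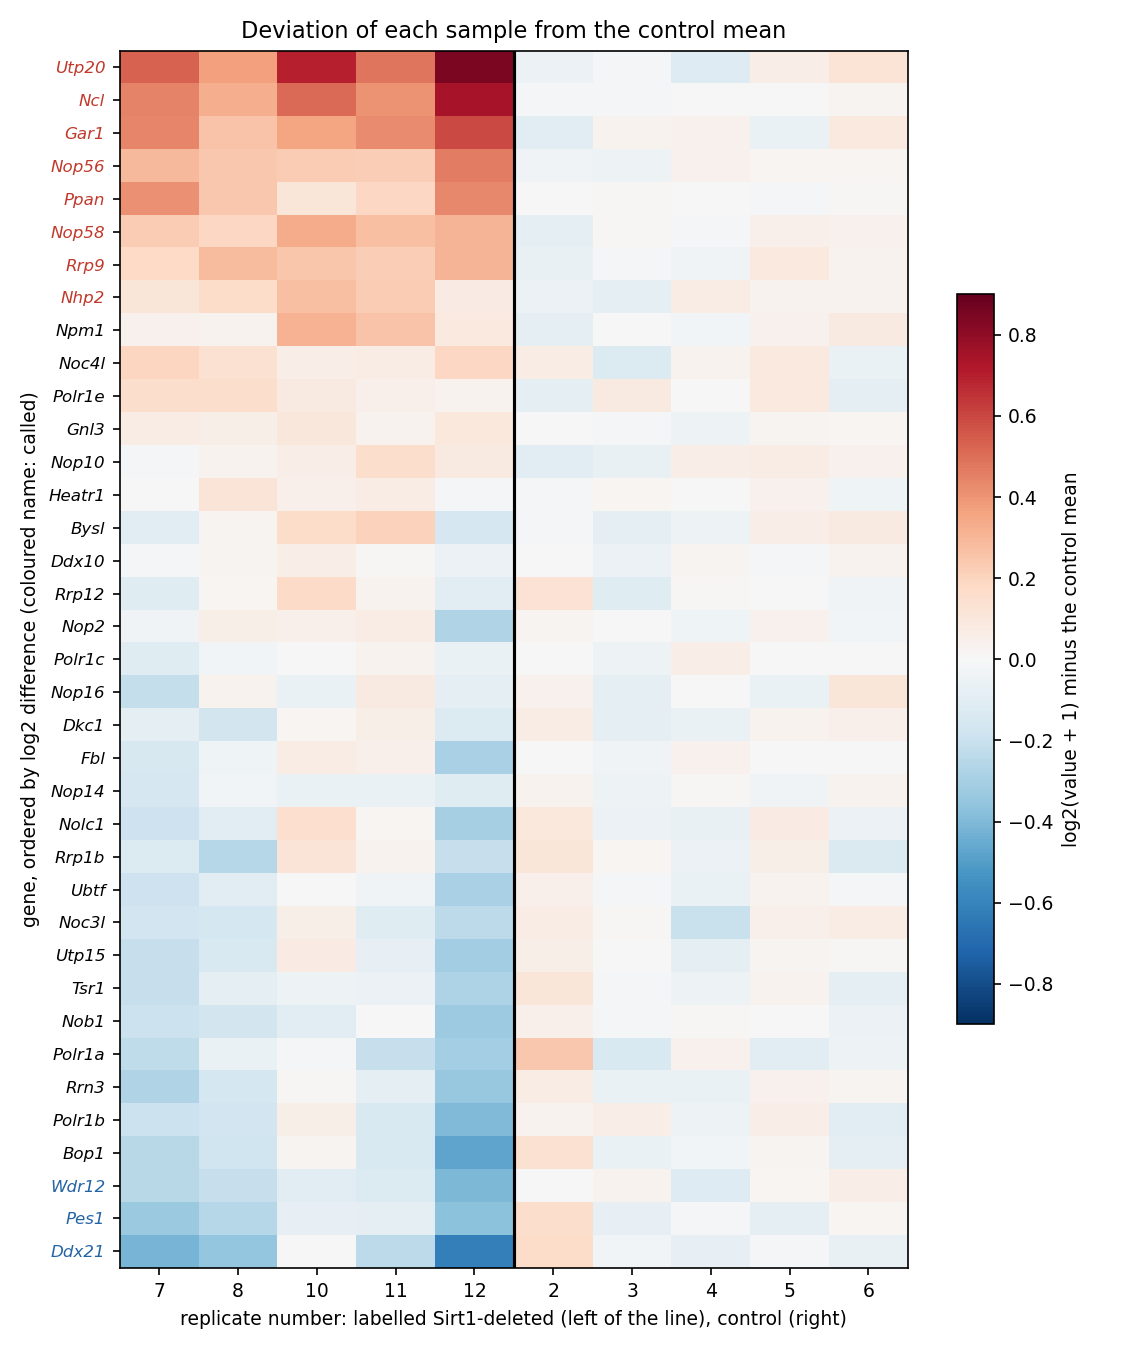
Log2(value + 1) minus the control mean (colour) for the 37 genes (rows, ordered by log2 difference) in the 10 samples (columns, by replicate number). Replicate 12 holds strong colours at both ends, highest of its group in 6 of the 8 genes called higher, while replicate 10 is close to the controls in the genes with the lowest differences.

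Together the members took 1.07% ± 0.0498 of all normalized counts in the labelled Sirt1-deleted group and 0.959% ± 0.00678 in the control group (SD, n = 5 each). Ncl and Npm1 made up much of it. Without those genes the shares were 0.542% ± 0.0214 and 0.538% ± 0.0105, a difference within the spread between replicates. Per kilobase of the longest annotated coding sequence, the control mean was highest for Npm1 (88375), followed by Ncl (31040.7), Nop10 (17840.8), Fbl (12402) and Nhp2 (10609.8). On that scale it was lowest for Utp20 (349), Noc3l (590.4) and Polr1a (660.4). The coding length leaves out untranslated parts and was only 195 bases for Nop10 and 462 for Nhp2, so the ranking is approximate.

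Of the 8 genes called higher, 7 were called under every alternative run, all but Nhp2, while the number called lower depended on single samples. Leaving out 1 sample at a time gave 7 to 8 members called higher and 1 to 10 called lower. Without labelled Sirt1-deleted replicate 10, 10 members were called lower, adding Utp15, Nob1, Tsr1, Bop1, Polr1b, Ubtf and Rrn3. Those 10 are 27.0% of the members, against 21.9% of all tested genes called lower and 19.2% called higher. Without control replicate 2, Pes1 and Ddx21 were lost and 1 member was called lower, beside 14.6% of all tested genes lower and 12.9% higher. Pes1 was also lost without labelled Sirt1-deleted replicate 7 or 12. With replicates 10 and 11 both left out, 14 members were lower (37.8%) and 8 higher (21.6%), beside 24.5% and 21.0% of all tested genes. Among labelled Sirt1-deleted samples, these replicates had the highest medians over the 29 members not called higher (0.05 and 0.01). Leaving them out therefore favours lower calls among the members. Down-weighting variable samples gave 9 lower and 9 higher (24.3% each), beside 21.8% and 19.0%. Without replicate 10, and with sample weights, the share of members called lower was near the background. With replicates 10 and 11 left out it was above the background, and with all 10 samples weighted equally it was under it. The exact rank-sum test, which at this size called only genes with groups that did not overlap, gave 9 higher and 0 lower, beside 3 lower in limma.

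**Figure D5:**
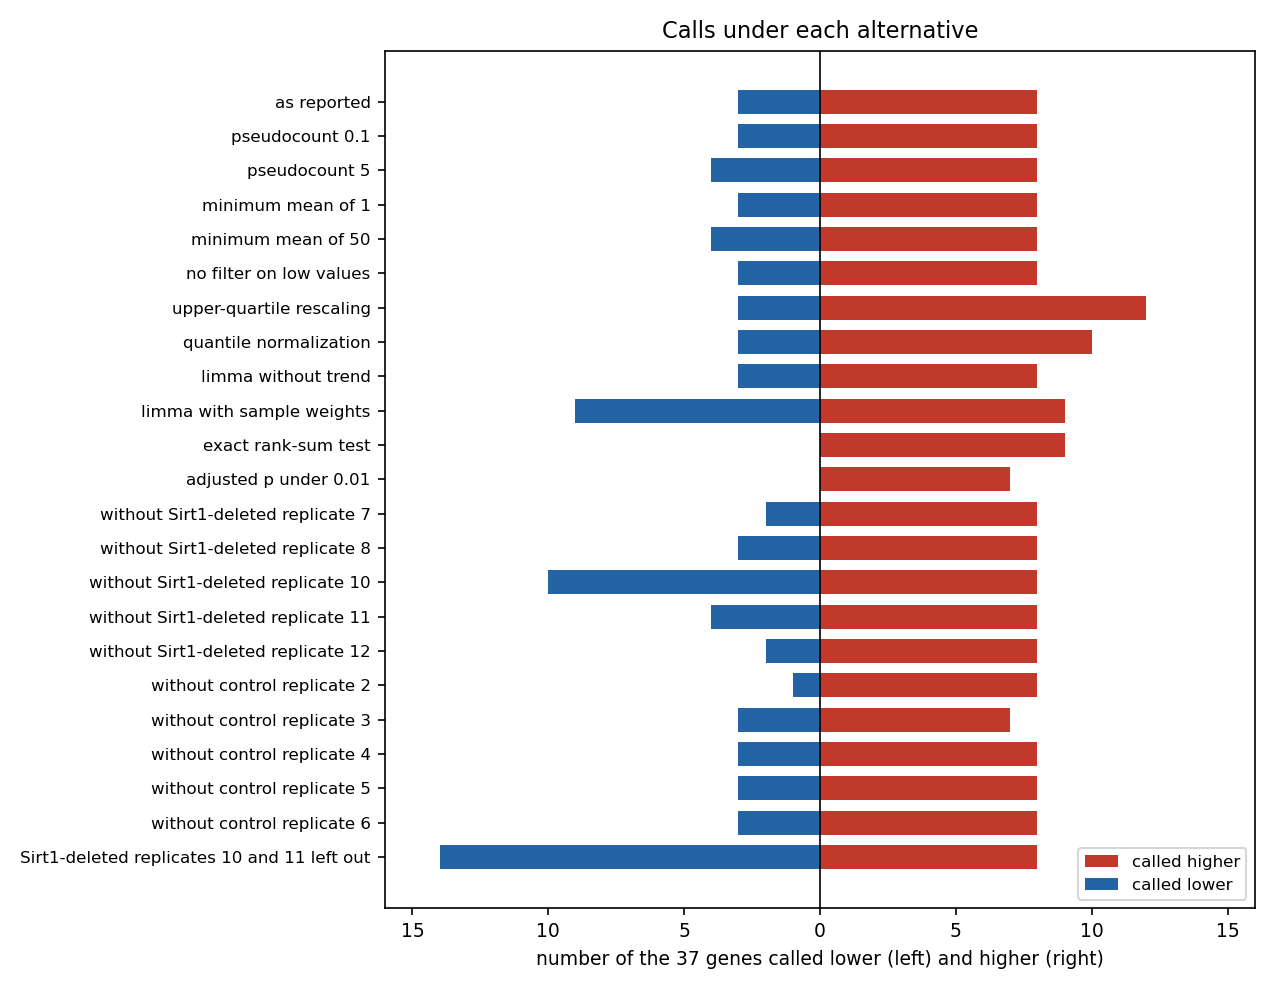
Number of the 37 genes called lower (bars to the left) and higher (bars to the right) under each processing alternative and with samples left out. The right side stays between 7 and 12, and the left side ranges from 0 to 14.

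The rest of the pathway was examined in a list of 102 other ribosome biogenesis and RNA polymerase I genes. Of the list, 26 were called higher (25.5%) and 18 lower (17.6%), beside 16.8% and 19.4% of all tested genes. Their median log2 difference was 5.7e-05, near that of all tested genes. By class, the 9 other RNA polymerase I genes had 3 called higher (33.3%) and 1 lower (11.1%). The 45 small subunit genes had 14 (31.1%) and 9 (20%), and the 48 large subunit genes 9 (18.75%) and 8 (16.7%). The widest rise was that of Mdn1, a giant ATPase that remodels large subunit precursors, at 8357, 7079, 6518, 5543 and 10734 in the labelled Sirt1-deleted replicates and 3069.6, 4222, 3760.5, 4234 and 5069 in controls. These values do not overlap, and the log2 difference was 0.89 (SE 0.16, limma adjusted p = 0.00209). Mrto4, a placeholder for the ribosomal stalk, followed with 0.44 (SE 0.05, limma adjusted p = 0.000219), the small subunit factor Wdr75 with 0.38 (SE 0.10, limma adjusted p = 0.00975) and Taf1d, of the promoter selectivity factor of RNA polymerase I, with 0.32 (SE 0.07, limma adjusted p = 0.00536).

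The widest falls in that list were those of Imp4, a U3 snoRNP protein, at -0.64 on the log2 scale (SE 0.16, limma adjusted p = 0.00814), and Rcl1, a factor of small subunit rRNA processing, at -0.55 (SE 0.11, limma adjusted p = 0.00306). Gnl3l, a GTP-binding relative of nucleostemin, differed by -0.41 (SE 0.09, limma adjusted p = 0.00411) and Taf1b, another subunit of the selectivity factor, by -0.38 (SE 0.07, limma adjusted p = 0.00176). Imp4 was 2520.4 ± 696 in the labelled Sirt1-deleted and 3792 ± 155 in the control samples (SD, n = 5 each). Subunits of the same complex were thus called in opposite directions, Taf1d higher and Taf1b lower.

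Genes known to act around the pathway were read in the same fit. Myc was 9523 ± 632 in the labelled Sirt1-deleted and 10181 ± 613 in the control samples (SD, n = 5 each), a log2 difference of -0.10 that was not called (limma adjusted p = 0.204), and Mycn was below the filter. Of the ribosomal proteins that bind MDM2, Rpl5 was higher by 0.23 (SE 0.06, limma adjusted p = 0.0103) and Rpl11 differed by -0.13 (limma adjusted p = 0.0548). Trp53 mRNA fell by 0.31 on the log2 scale (limma adjusted p = 0.0176), with groups that did not overlap. The p53 target genes Mdm2 and Cdkn1a, the latter encoding the cell cycle inhibitor p21, were higher by 0.23 (limma adjusted p = 0.00593) and 1.88 (limma adjusted p = 3.52e-05), Cdkn1a at 1108 ± 256 against 297 ± 38.3 (SD, n = 5 each). The proliferation and myeloid marker sums above moved with the same groups, and their part in these values was not tested.

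Several of the genes called higher hold small nucleolar RNAs in their introns, an overlap looked for after the values were seen. By the GENCODE M21 annotation, 7 members have an annotated snoRNA inside (Dkc1, Gnl3, Ncl, Nop56, Nop58, Ppan and Tsr1), and 4 of them (Ncl, Nop56, Nop58 and Ppan) were called higher and none lower. Of all 238 tested genes with an annotated snoRNA inside, 19.7% were called higher and 20.6% lower, beside 16.7% higher among the 15038 without one. Restricted to snoRNAs with a Snora, Snord or Scarna symbol, the tested hosts were 71, of which 32.4% were called higher and 18.3% lower. That share was 23.8% over the 42 such hosts that are neither members nor ribosomal protein genes. The host count is a description and the snoRNAs themselves were not analysed here.

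Some values may include reads of other loci. No member shared exon sequence with another annotated gene on its own strand, and 14 had an exon overlapping one on the other strand, among them the called genes Nop56 with Idh3b, Rrp9 with Parp3, Nhp2 with Rmnd5b, Pes1 with 4930556J24Rik and Wdr12 with Carf. The libraries were strand-specific per the labels, but whether the counting used the strand is not given in the sources used here. Stretches of at least 200 bases at 95% identity or more with another gene's transcript were found for 8 members (Bysl, Ddx21, Fbl, Nop56, Npm1, Pes1, Tsr1 and Wdr12). For Bysl and Tsr1 the only such gene (Ccnd3 and Srr, at 100% identity) is the one overlapping it on the other strand. Those stretches are that overlap and not a copy elsewhere. Counts of the other members could be divided with the genes sharing a stretch. As a share of the member's own control value, the tested genes with such a stretch summed to 361% for Bysl (Ccnd3), 136% for Wdr12, 21.9% for Fbl (mostly Tulp4), 8.92% for Tsr1 (Srr), 0.361% for Nop56 and 0.316% for Npm1, while those of Ddx21 and Pes1 were not among the tested genes. The genes sharing a stretch with Wdr12, itself called lower, include Tmod3, which was called lower (log2 difference -0.17, limma adjusted p = 0.00819), and Cxcr2, which was called higher (1.74, limma adjusted p = 0.000481), each over 206 bases. These shares use the whole value of the other gene, and Tmod3 alone stood at 113% of Wdr12. The longest stretches with Wdr12 were in Vmn1r88 (1377 bases, 4.35% of Wdr12, not called) and Gm4879 (1272 bases, not tested). Pes1 shared 1771 bases with Gm5910 and 1394 with Gm5472, and Ddx21 shared 398 with Gm37197. Ccnd3 was called higher (0.54, limma adjusted p = 0.000505) and Bysl was not called. How reads of these stretches were divided was not tested, so the values of Wdr12, Fbl, Pes1 and Ddx21 are uncertain to that extent. The value of Bysl is uncertain in this way only if the counting did not use the strand.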

How the data were processed

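RNA-seq of 10 leukemic spleens was used, 5 per group, grouped by the genotype label, with samples named by the number in their titles. The deposited values are a normalized signal: gene counts that the authors scaled by DESeq factors, per the name they gave the table and the submitters' processing notes. Kallisto 0.44.0, DESeq and mm10 are named in the submitters' processing notes; the annotation is not given there. Totals were 33.7 M to 34.5 M (M, mega). Only 71.6% to 74.4% of low values lay within 0.1 of a whole read (approximate depth 31.6 M to 38.1 M reads), so no count test was run and counting intervals are not given.

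Log2(value + 1) of the 15276 genes with a mean of at least 10 was tested with limma 3.58.1 in R 4.3.3 (group term, intensity trend, Benjamini-Hochberg adjustment over all tested genes, threshold 0.05); 5537 genes fell below the filter. Log2 differences on this scale understate changes of low genes. The script was tested on simulated data. The labels do not say that samples of a group are independent leukemias. The p-values set the group difference against the spread between these samples, treated as independent, and may not extend beyond the leukemias used. The members and all gene lists were chosen with earlier results of these data known. Every member is named, with all sample values for the 6 widest rises, the called falls, and Ncl, Npm1, Fbl, Polr1a, Polr1b, Ubtf and Rrn3. From the other pathway list the 4 widest rises and falls with a mean of at least 100 are named. Of 123 symbols on that list, older aliases included, 102 were in the table and tested, and 13 snoRNA host RNAs were not analysed here.

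Coordinates, coding lengths and overlaps are from GENCODE M21 (GRCm38), matched by symbol for all 37 members, and promoters from RefSeq. Near-identical stretches were searched with blastn 2.17.0. The same counts were recomputed with pseudocounts of 0.1 or 5, with the minimum mean at 1, at 50 or absent, after upper-quartile or quantile scaling, with sample weights or no trend in limma, by the exact rank-sum test, at an adjusted p under 0.01, and with samples left out.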

Additional observations from a re-analysis of the deposited data

Results flagged for a closer look

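A sample far from the other 4 of its group was found in 2 of 74 sets of 5 values (37 members in 2 groups), where chance gives about 1 in 20, or 3.7. For Noc3l, control replicate 4 was the lowest at 1244, with the other controls between 1440.3 and 1499, and the gap was 0.77 of the range of the group. For Ddx21, control replicate 2 was the highest at 16989, with the others between 14411 and 15052, and the gap was 0.751 of the range. The critical value for 5 samples is 0.71. Without control replicate 2, Ddx21 was no longer called lower.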

How the results depend on the processing

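No paired analysis was possible because no replicate number of the titles occurs in both groups. The counts are of genes called by limma unless another test is named. Members called in either direction numbered 11, and 18 with sample weights, 7 at an adjusted p under 0.01, 22 with labelled Sirt1-deleted replicates 10 and 11 left out together, and 9 to 18 when each sample was left out in turn. Members called lower numbered 3, and 9 with sample weights, 0 in the exact rank-sum test, 0 at an adjusted p under 0.01, 14 with replicates 10 and 11 left out, and 1 to 10 leaving out each sample. Members called higher numbered 8, and 7 to 8 leaving out each sample. Upper-quartile scaling gave 12, adding Npm1, Gnl3, Noc4l and Polr1e, moved the median of the members to 0.025 and that of all tested genes to 0.058, and raised the share of calls that are higher over all tested genes from 46.4% to 58.2%. Quantile scaling gave medians of 0.018 and -0.027. The signs below are not corrected for these shifts of all tested genes. Of the 8 higher calls, only Nhp2 was lost under any alternative run: at an adjusted p under 0.01, without control replicate 3, and with replicates 10 and 11 left out. For the 102 other pathway genes, the exact rank-sum test gave 29 calls, 17 higher, and an adjusted p under 0.01 gave 20, 11 higher and 9 lower. With replicates 10 and 11 left out 31 were lower. Leaving out each sample gave 30 to 48 calls, 17 to 24 higher and 13 to 24 lower. Over all tested genes the rank-sum test called 3659 (1691 higher, 1968 lower) and an adjusted p under 0.01 called 2850 (1328 and 1522). Leaving out each sample gave 4207 to 6259 calls, 1975 to 2920 higher and 2232 to 3339 lower. Signs turned only for members that were not called: Npm1 to -0.0618 with quantile scaling, Nop2 to 0.0300 and 0.0205, Nop16 to 0.0121 and 0.0184, and Polr1c to 0.0249 and 0.0293 with upper-quartile and quantile scaling, Rrp12 to -0.00328 with sample weights, and Ddx10 to -0.0131, Bysl to -0.0733 and Rrp12 to -0.0649 with replicates 10 and 11 left out. Leaving out each sample gave ranges across 0 for Bysl (-0.0129 to 0.0769), Ddx10 (-0.00716 to 0.0218), Nop2 (-0.0525 to 0.0317) and Rrp12 (-0.0414 to 0.0343). The cause of these changes was not tested.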
